A study of Rattus norvegicus with 8 samples.

Results

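The genes described here are Hbb, Alas2, Slc4a1, Epb42, Rhag, Rhd, Klf1, Hemgn and Tfrc, which make hemoglobin and the red blood cell. They were found on the Arraystar rat lncRNA array, a 1-colour Agilent slide with probes for lncRNAs and mRNAs, through the RefSeq transcript that each mRNA probe is named after. Of these 9 genes, 8 had a probe, 1 each, among the 13888 genes named in this way, while no probe carried a RefSeq transcript of Tfrc and its level was not analysed here. All 8 probes were well above background on all 8 arrays, all passed the filter on dim probes and all were tested in lung. The arrays held RNA of 3 lung tumors and, as their matched tissue, 3 normal lungs, all of male F344 rats given NNK (a nitrosamine of tobacco smoke that causes lung cancer), and 2 clots of whole blood, 1 from a control rat and 1 from a rat given NNK, all taken in week 95. The normal lung therefore came from the carcinogen-treated group too, and no lung of an untreated rat was used. One label of the NNK clot, its description, was the same as a tumor's, but the remaining labels named a clot and the array was used as blood.

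Hemoglobin is a tetramer of alpha-type and beta-type globin chains, each holding a heme group with an iron atom. It is built in the erythroblasts of the bone marrow, where the factors Gata1 and Klf1 switch on the globin genes, the genes of heme synthesis and those of the red cell membrane. A mature red cell has no nucleus, but the reticulocyte, its newly released form, still carries RNA. In RNA from a whole tissue, fewer red cells and less RNA per red cell cannot be told apart.

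The promoters of the genes are shown first because GATA-binding factors and Klf1 are known to act through short motifs near the start of erythroid genes. Each sequence holds the 250 bases before the transcription start in RefSeq's rat assembly GRCr8, 5′ to 3′ on the strand of the gene, and capitals mark matches to either motif on either strand. The GATA motif was searched as AGATAA, with T also allowed as its opening letter and G as its closing one, and the CACC box, the kind of site that Klf1 binds, as CCNCNCCC. Promoters of 8 of the 9 genes were found (all but Slc4a1), with 2 starts for Hemgn. That of Tfrc is counted below but not printed.
Hbb, chr1:167663722-167663971, minus strand: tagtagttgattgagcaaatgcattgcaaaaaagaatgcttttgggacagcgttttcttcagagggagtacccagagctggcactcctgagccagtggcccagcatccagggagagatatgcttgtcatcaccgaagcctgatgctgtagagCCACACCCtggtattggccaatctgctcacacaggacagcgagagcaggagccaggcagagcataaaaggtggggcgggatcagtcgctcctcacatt
Alas2, chrX:22895200-22895449, plus strand: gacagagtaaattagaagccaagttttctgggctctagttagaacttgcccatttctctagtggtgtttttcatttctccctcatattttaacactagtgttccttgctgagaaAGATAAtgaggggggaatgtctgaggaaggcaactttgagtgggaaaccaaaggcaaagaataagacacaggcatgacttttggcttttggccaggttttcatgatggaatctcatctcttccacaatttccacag
Epb42, chr3:128451684-128451933, minus strand: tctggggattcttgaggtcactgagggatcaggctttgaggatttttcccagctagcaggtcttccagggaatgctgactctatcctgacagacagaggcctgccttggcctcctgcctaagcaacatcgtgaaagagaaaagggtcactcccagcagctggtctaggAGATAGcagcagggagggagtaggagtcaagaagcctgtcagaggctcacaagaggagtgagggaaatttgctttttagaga
Rhag, chr9:27594391-27594640, minus strand: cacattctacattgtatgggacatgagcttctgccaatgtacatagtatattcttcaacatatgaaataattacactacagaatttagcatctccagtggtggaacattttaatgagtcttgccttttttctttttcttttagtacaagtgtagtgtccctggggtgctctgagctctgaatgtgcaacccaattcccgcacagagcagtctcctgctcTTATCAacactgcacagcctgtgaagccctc
Rhd, chr5:152370950-152371199, plus strand: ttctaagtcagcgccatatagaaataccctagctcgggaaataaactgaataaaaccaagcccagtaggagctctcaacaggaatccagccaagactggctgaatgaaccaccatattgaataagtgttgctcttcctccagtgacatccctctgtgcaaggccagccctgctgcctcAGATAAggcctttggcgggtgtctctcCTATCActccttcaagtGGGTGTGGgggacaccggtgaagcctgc
Klf1, chr19:40158652-40158901, minus strand: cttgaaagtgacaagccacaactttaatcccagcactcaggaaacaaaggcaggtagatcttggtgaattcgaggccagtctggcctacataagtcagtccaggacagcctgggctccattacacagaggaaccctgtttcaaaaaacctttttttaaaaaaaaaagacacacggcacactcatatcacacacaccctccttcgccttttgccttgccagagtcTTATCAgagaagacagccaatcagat
Hemgn (outer start), chr5:65494190-65494439, minus strand: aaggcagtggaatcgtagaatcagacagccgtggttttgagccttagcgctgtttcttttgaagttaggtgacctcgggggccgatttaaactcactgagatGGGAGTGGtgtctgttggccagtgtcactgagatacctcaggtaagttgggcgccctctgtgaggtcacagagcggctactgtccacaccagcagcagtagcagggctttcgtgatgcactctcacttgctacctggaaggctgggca
Hemgn (inner start), chr5:65485822-65486071, minus strand: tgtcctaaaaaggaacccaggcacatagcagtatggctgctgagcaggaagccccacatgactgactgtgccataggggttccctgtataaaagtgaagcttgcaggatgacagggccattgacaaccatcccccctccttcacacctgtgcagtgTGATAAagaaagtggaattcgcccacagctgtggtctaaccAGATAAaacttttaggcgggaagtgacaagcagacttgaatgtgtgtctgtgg

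The GATA motif was present before at least 1 start of 6 of the 8 genes with a promoter sequence, namely Alas2, Epb42, Hemgn, Rhag, Rhd and Klf1. It was present in 27% of all 33469 RefSeq promoters of the same length. The CACC box motif was present in 4 of the 8 (Hbb, Hemgn, Rhd and Tfrc), against 42.8% of all promoters. In Rhd both motifs occurred in the same 250 bases, which held for 7.57% of all promoters, and no GATA match overlapped a CACC box match. In Hemgn the 2 GATA matches lay before the inner start, 94 and 53 bases from it, and the CACC box match before the outer one. A match is only a run of letters, and binding was not measured.

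The arrays fell into clear sets before any gene was compared. The 75th percentile of the processed signal (the background-subtracted intensity of a spot) ran from 1190 to 1330 in lung, with 95.4 for control blood and 206 for NNK blood. The scanner software had marked 15.9% to 25.3% of the bright spots of the tumor arrays (those well above background) as outliers, against 4.92% to 8.62% for normal lung, and probes that lost too many values to these marks were not tested. Over probes printed in 3 spots, the squared difference between arrays was 0.459 to 0.802 of that expected from the spread between spots when 2 normal lungs were compared and 0.449 for tumor 2 against tumor 3, but 3.00 and 3.32 between tumor array 1 and the other tumor arrays. The paper describes 3 independent tumors and 3 matched normal lungs. By these ratios, however, the 3 normal lungs could be 1 sample measured 3 times. Tumors 2 and 3 could be 1 sample too, since spot noise alone exceeded the differences within each set. The lung comparison was therefore also computed with these near-identical arrays counted once, as 1 normal and 2 tumor samples. For the 8 genes that value is given beside the first. In that fit only the difference between both tumor samples, pooled over probes by limma, gives an error, which is taken to hold for normal lung too, so its adjusted p values are a weak check. All normal lung arrays and tumor array 1 shared a scan, tumor arrays 2 and 3 shared another and the blood arrays shared the last. The labels did not say which rats the arrays came from, so p-values measure only the spread between these arrays, which may be technical.

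Lung tumor was compared with normal lung for every probe at once, to see how the tumor differed from normal lung of rats given NNK. In the tumor, 6 of the 8 genes were at least 2-fold lower with an adjusted p of at most 0.05 (limma with Benjamini-Hochberg adjustment over 12471 probes), and none was higher. Over all probes tested, 15.5% were lower by the same rule and 13.5% higher. The 6 were Alas2, Slc4a1, Epb42, Hemgn, Rhag and Rhd, and the same 6 genes passed with the near-identical arrays counted once, where 7.92% of all probes were lower and 6.31% higher. The other two, Hbb and Klf1, were lower in the tumor by less than 2-fold. The median log2 difference of the 8 genes was -2.08, against 0.07 for all probes. On the normalized log2 scale all 3 tumor arrays lay below all 3 normal lung arrays for each of the 8 genes, an order that 34.7% of all probes showed. With the scan as a block, which compares tumor array 1 with normal lung inside their shared scan, the same 6 genes were called, where 13.5% of all probes were lower, and Klf1 was at -0.24. Over the 20 settings that gave an adjusted p, the 6 genes ranged from 3.12e-07 to 0.0380, Hbb from 0.00013 to 0.152 and Klf1 from 0.000697 to 0.334. The 8 genes were chosen with earlier results of these data known, so the count describes them and is no independent evidence of a direction.

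Hbb encodes the adult beta-globin chain. The processed signal was 178114, 203029 and 188605 on normal lung arrays 1 to 3. It was 137208, 143898 and 147393 on lung tumor arrays 1 to 3, so the tumor arrays were lower without overlap, by a small margin. The normalized log2 difference was -0.57 (SE 0.05), a 1.49-fold decrease, with an adjusted p of 0.000365 by limma, and of 0.152 when near-identical arrays were counted once.

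Alas2 is the erythroid form of aminolevulinate synthase, the enzyme that starts heme synthesis and sets its rate in red cell precursors. Its processed signal was 20374.3, 21915.5 and 19943.2 on the normal lung arrays. On the tumor arrays it was 2298.9, 2218.7 and 2319.1, far below normal lung and within a narrow range. The log2 difference of -3.09 (SE 0.05) was an 8.49-fold decrease (limma adjusted p = 3.58e-06, and 0.0347 when near-identical arrays were counted once).

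Slc4a1 (band 3, the chloride-bicarbonate exchanger) and Epb42 (protein 4.2, which binds band 3 to the skeleton beneath it) belong to the band 3 complex of the red cell membrane. Slc4a1 had processed signals of 202.4, 228.1 and 203.2 on normal lung and 37.8, 51.0 and 34.8 on the tumor arrays. The groups lay far apart, and the tumor arrays spread more (SD 0.34 in normalized log2 signal) than the normal ones (SD 0.03). Its log2 difference was -2.61 (SE 0.18), a 6.10-fold decrease (limma adjusted p = 0.000108, and 0.0347 counted once), but -1.43 under the normexp background correction, which adds an offset of 50 to all signals.

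Epb42 had a processed signal of 65.9, 73.9 and 65.1 on normal lung and 17.8, 18.4 and 23.2 on the tumor arrays, without overlap. The log2 difference was -2.06 (SE 0.11), a 4.16-fold decrease (limma adjusted p = 3.96e-05, and 0.0380 counted once). Under the normexp correction its log2 difference was -0.76 and so below 2-fold. Among the 6 genes it was the only one that missed the call under any of the alternatives run.

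Rhag and Rhd form the Rh complex of the red cell membrane, in which Rhag conducts ammonia and Rhd carries the Rh blood group antigen. Rhag had processed signals of 485.3, 530.9 and 509.1 on normal lung and 64.0, 68.3 and 71.9 on the tumor arrays. The difference was the largest of the 8 genes in size, -3.12 on the log2 scale (SE 0.06) or 8.71-fold, although that of Alas2 lay within the errors of both (limma adjusted p = 3.93e-06, and 0.0347 counted once). Under normexp it was -2.17. Rhd had 1761.4, 1866.4 and 1737.8 on normal lung and 409.3, 467.1 and 416.4 on the tumor arrays. It was 4.32-fold lower in the tumor, with a log2 difference of -2.11 (SE 0.06, limma adjusted p = 8.17e-06, and 0.0354 counted once).

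Klf1 and Hemgn act in the nucleus, Klf1 as the erythroid Krüppel-like factor that binds the beta-globin promoter and Hemgn as hemogen, a nuclear protein of blood cell precursors. Klf1 was 517.6, 540.4 and 481.9 on the normal lung arrays and 482.2, 407.3 and 388.3 on the tumor arrays in processed signal, so that the signals as deposited just overlapped. After normalization the tumor arrays were lower by 0.44 on the log2 scale (SE 0.10), a 1.36-fold decrease, with a limma adjusted p of 0.0118, and of 0.334 when near-identical arrays were counted once. Hemgn was 576.5, 581.3 and 557.4 on normal lung and 151.0, 136.4 and 218.7 on the tumor arrays, with tumor array 3 the highest of the tumors. It was 3.99-fold lower in the tumor (SE 0.18 on the log2 scale, limma adjusted p = 0.000356, and 0.0367 counted once).

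Other genes of red cell formation were taken from lists of 9 functions, in which 71 genes besides the 8 had a probe. Of these, 63 passed the filter on dim probes and 47 were tested. By limma's call 11 were lower and 5 higher in the tumor, where 15.5% of all probes were lower and 13.5% higher. Their median log2 difference was -0.13. With the near-identical arrays counted once, 9 were lower and 1 was higher of 45 tested, against 7.92% and 6.31% of all probes. Without lung tumor array 1 the count of higher genes was 8, and 14.5% of all probes were higher. With outlier-marked spots kept, all 63 were tested, and 15 were lower and 7 higher, where 14.4% of all 15803 probes were lower and 13.5% higher. The lists were also drawn up with earlier results known. Of the 11 genes that were lower, all but Car1 belonged to the globin, membrane, transcription and erythropoietin signaling lists. On the normalized scale, with marked spots kept, the tumor arrays lay below normal lung for 28 of the 63 genes, above it for 22 and overlapped for 13, where 34.7% of all probes lay below and 38.3% above.

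**Figure D1:**
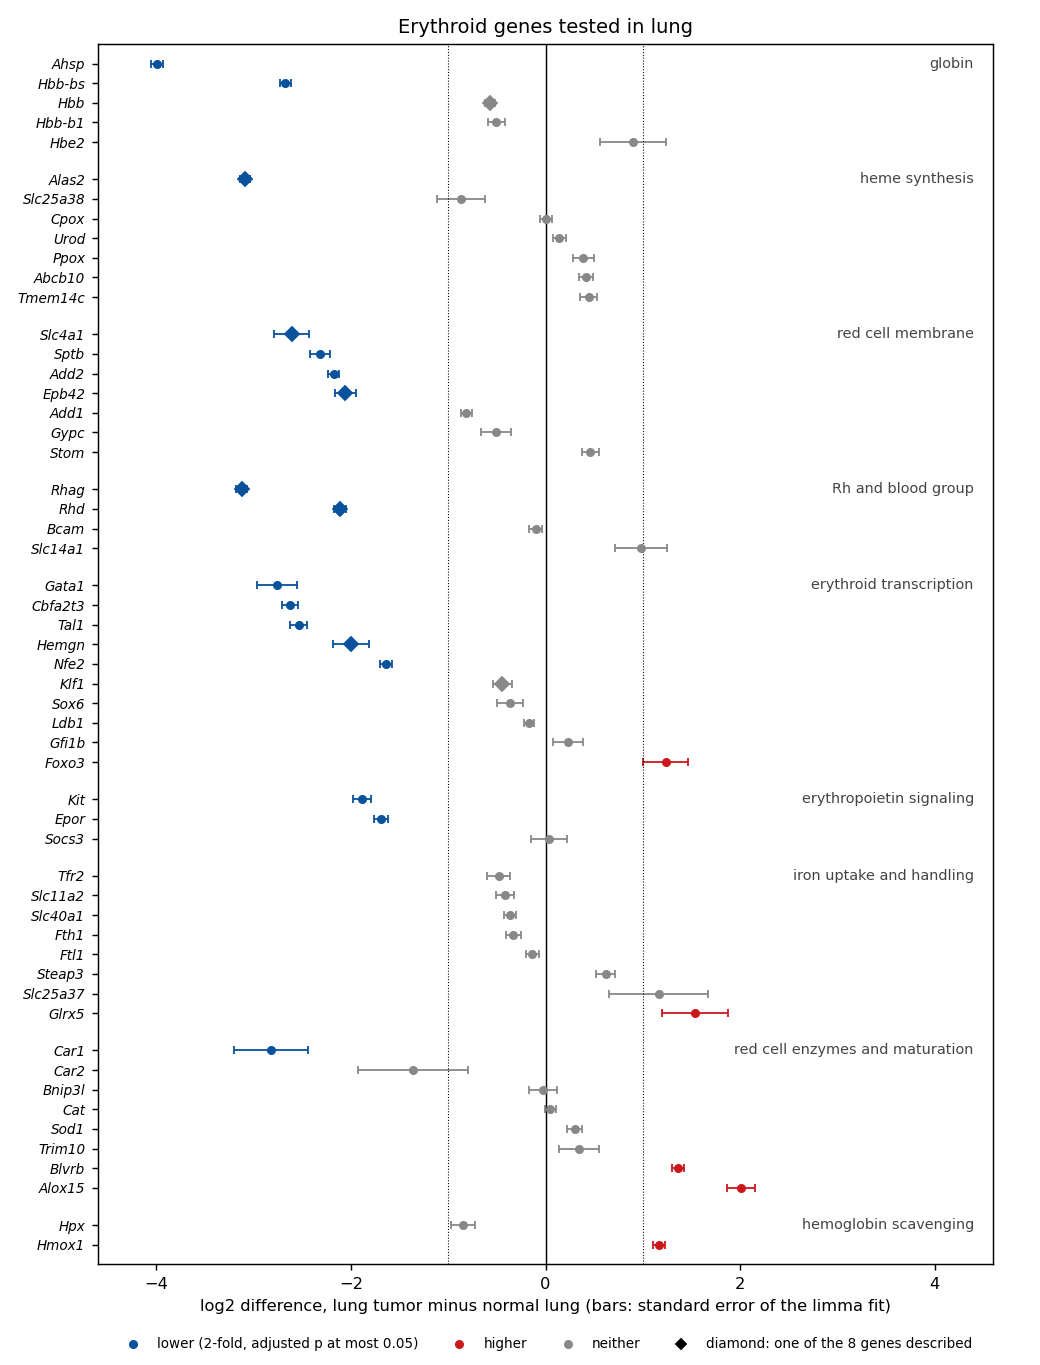
Log2 difference of normalized signal, lung tumor minus normal lung, for the 8 genes described (diamonds) and for other erythroid genes tested, by function, with 1 gene not shown, with the standard error of the limma fit over 3 and 3 arrays as bars. Of the diamonds, 6 lie beyond the dotted 2-fold line at the left, while Hbb and Klf1 lie between it and 0, and no gene shown for heme synthesis besides Alas2 lies past either line.

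Among the globins, the probes of the beta-globin genes did not run together. Hbb-b1 was lower by 0.50 on the log2 scale (SE 0.08, limma adjusted p = 0.00353), close to Hbb, while Hbb-bs was lower by 2.67 (SE 0.06, limma adjusted p = 4.83e-06), a 6.37-fold decrease. The processed signal of Hbb-bs fell from between 100047 and 110547 on normal lung to between 15528.7 and 16310.5 on the tumor arrays. These genes are near-identical copies, so a probe may also bind transcripts of its relatives, and values for a single copy are uncertain.

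The alpha-globin genes Hba-a1 and Hba-a2 lost their values to outlier marks on 6 and 3 of the lung arrays and were not tested. With these spots kept, Hba-a1 was 5.63-fold lower in the tumor and Hba-a2 8.68-fold lower (limma adjusted p = 6.02e-06 and 1.45e-05). The largest decrease in the globin list was that of Ahsp, the chaperone of free alpha-globin. Its processed signal was 6521.4, 7090.3 and 6166.7 on normal lung and 410.5, 438.0 and 399.2 on the tumor arrays. That was a 15.9-fold decrease (log2 difference -3.99, SE 0.06, limma adjusted p = 3.23e-06). The globins Hba-a3, Hbe1 and Hbg1 were well above background on no lung array.

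In heme synthesis none of the 7 tested genes besides Alas2 passed the call. Among them, Slc25a38, the mitochondrial glycine carrier, had a log2 difference of -0.86 (SE 0.25) and Tmem14c, a porphyrin transporter, of 0.44 (SE 0.09).

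In the membrane list, Sptb (beta-spectrin, log2 difference -2.32, SE 0.10) and Add2 (beta-adducin, -2.18, SE 0.06) were lower in the tumor, with limma adjusted p values of 2.35e-05 and 5.6e-06, and Sptb was at -1.48 under normexp. A second probe of Add2 ran the other way, at 67.5 to 85.0 on normal lung and 179.5 to 193.1 on the tumor arrays, so the direction of Add2 depends on the probe. Neither Bcam nor Slc14a1, the other Rh and blood group genes tested, passed the call. Their log2 differences were -0.10 (SE 0.07) and 0.98 (SE 0.27).

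Of the 8 other nuclear factors tested, 4 were lower and 1 was higher, where 15.5% of all probes were lower and 13.5% higher. Gata1, the main GATA factor of red cells, had processed signals of 198.4, 213.3 and 215.9 on normal lung and 24.8, 50.8 and 36.1 on the tumor arrays, a 6.77-fold decrease (log2 difference -2.76, or -1.42 under normexp, limma adjusted p = 0.000159). Tal1, Cbfa2t3 and Nfe2, which also work in megakaryocytes or endothelium, were lower by 2.54, 2.62 and 1.64 on the log2 scale. Foxo3, a stress-response factor, was higher by 1.23 (SE 0.23, limma adjusted p = 0.00561, and 0.00076 to 0.0628 over all settings, highest counted once). Under normexp it was at 0.60 and not called.

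Of the erythropoietin pathway, the receptor Epor (log2 difference -1.69, SE 0.07) and the stem cell factor receptor Kit (-1.89, SE 0.09) were lower in the tumor, with limma adjusted p values of 2.28e-05 and 2.97e-05, and Kit was at -1.03 under normexp. In the list of iron handling only Glrx5, a mitochondrial glutaredoxin, passed the call. It was higher by 1.53 (SE 0.34, limma adjusted p = 0.0108), but by 0.80 within a fit that held the scan as a block.

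Among red cell enzymes, Car1 (carbonic anhydrase 1) was 7.06-fold lower (log2 difference -2.82, SE 0.38, limma adjusted p = 0.00161, and 5.63e-05 to 0.105 over all settings, highest counted once). Its log2 difference was -1.97 with the scan as a block and -0.94, below the call, under normexp. Blvrb, a biliverdin and flavin reductase, was higher by 1.36 (SE 0.06, limma adjusted p = 9.26e-05). Alox15, a lipoxygenase that also occurs outside red cells, rose from between 112.5 and 141.5 on normal lung to between 478.3 and 670.7 on the tumor arrays (log2 difference 2.01, SE 0.15, limma adjusted p = 0.000139). It was the 1 gene of these lists still called higher with the near-identical arrays counted once, where Blvrb was not tested.

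Of the genes that deal with free heme and hemoglobin, Hmox1 and Hp were higher in the tumor. Hmox1, the enzyme that breaks heme down, had processed signals of 32199.1, 34381.6 and 31285.5 on normal lung and 75523.9, 69680.1 and 65627.6 on the tumor arrays. It was 2.25-fold higher in the tumor (log2 difference 1.17, SE 0.06, limma adjusted p = 4e-05, and 8.13e-06 to 0.0572 over all settings, highest counted once). Hp, the plasma protein that binds free hemoglobin, was tested with outlier-marked spots kept and was 4.04-fold higher (limma adjusted p = 9e-06). Hpx, which binds free heme, had a log2 difference of -0.85 and did not reach 2-fold, and the scavenger receptor Cd163 was well above background on no lung array.

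Markers of other cells moved in the same comparison, in which 15.5% of all probes were lower and 13.5% higher, and their part in the result was not tested. Of the platelet markers, 4 of 5 tested were lower in the tumor (median log2 difference -2.15). The summed normalized signal of all 6 was nevertheless 5282 to 5583 on normal lung and 7907 to 9189 on the tumor arrays. Pf4 lost its values to outlier marks, and Gp5 was not called. With marked spots kept and all 8 arrays normalized together, Pf4 had log2 signals of 10.96 to 11.07 on normal lung and 11.87 to 12.10 on the tumor arrays. Those of Gp5 were 5.49 to 5.90 and 5.80 to 6.74. Of the endothelial markers, 4 of 5 were lower (median -1.94), with sums of 280870 to 289563 on normal lung and 77834 to 82790 on the tumor arrays. Of the type 1 alveolar markers, 3 of 4 were lower (median -1.39), with sums of 934151 to 947139 and 271640 to 282713.

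Markers of white cells went in different directions, where 15.5% of all probes were lower and 13.5% higher. Of the neutrophil markers, 2 of 4 tested were lower (median -1.24, sums of 15844 to 16626 on normal lung and 4360 to 5280 on the tumor arrays), and of the T cell markers 2 of 7 (median -0.63, sums of 20463 to 21892 and 11599 to 13294). None of the 5 macrophage markers and none of the 6 type 2 alveolar markers tested passed the call. The sums of these 2 lists were 154879 to 165060 and 1012960 to 1054080 on normal lung, and 162146 to 192100 and 1188990 to 1213680 on the tumor arrays. With outlier-marked spots kept, 1 of 7 type 2 markers was called higher, where 13.5% of all probes were. Sftpc, tested only then, had log2 signals of 14.30 to 14.48 on normal lung and 15.67 to 16.03 on the tumor arrays, with all 8 arrays normalized together. Of the proliferation genes, 4 of 7 were higher (median 1.29, sums of 14139 to 14253 and 45051 to 53354), and of the B cell markers 1 of 3 (median 1.42, sums of 26.5 to 43.2 and 42.0 to 102). The defining markers Cdh5, Marco and Ltf were well above background on no lung array.

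**Figure D2:**
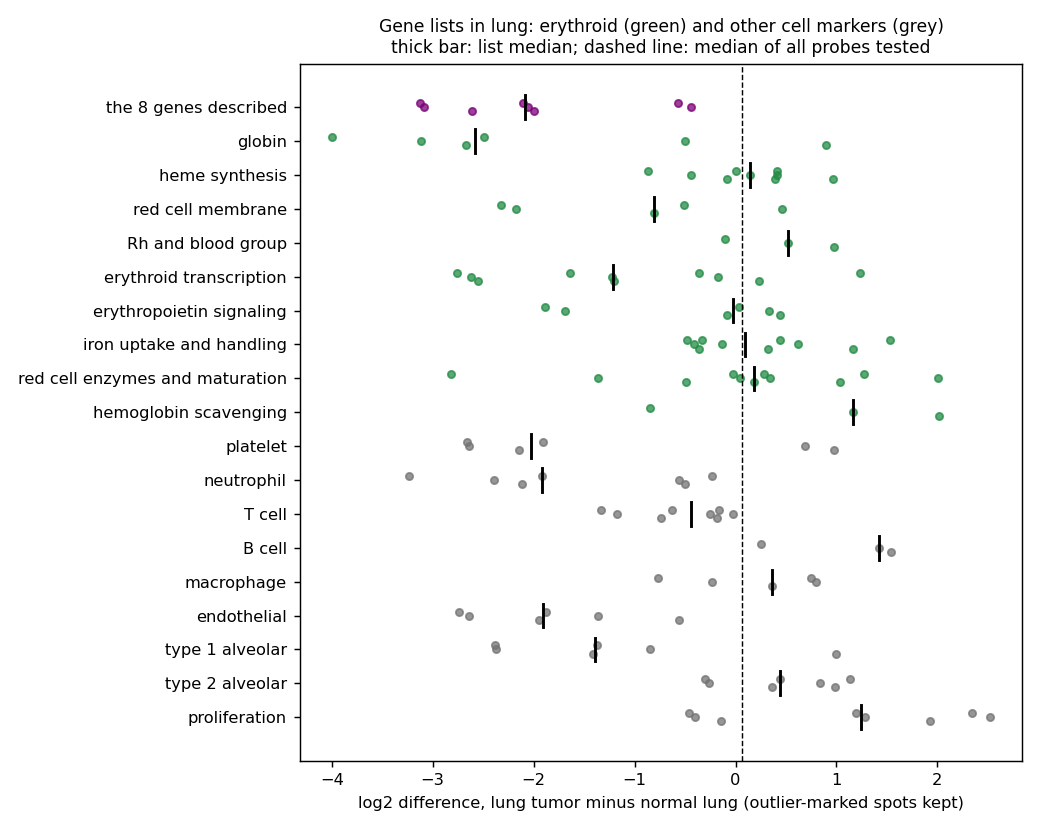
Log2 difference of normalized signal, lung tumor minus normal lung, for each gene tested with outlier-marked spots kept (points) and the median of each list (thick bars), for the 8 genes described, the other erythroid genes by function, and markers of other cells. The medians of the 8 genes (-2.08), the other globins (-2.58) and the platelet (-2.03), neutrophil (-1.92) and endothelial markers (-1.91) lie left of the dashed median of all probes at 0.06.

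The 2 blood arrays show the same genes in the fluid where red cells are found. Each group had 1 array, so the difference between NNK blood and control blood has no replicate check and no test. Hbb on both arrays and Alas2 on the NNK array were at the scanner's limit. The processed signal of Hbb was 658487 on control blood and 659641 on NNK blood, both at or above the array's saturation value, and no fold change can be given although no spot carried a saturation flag. Alas2 was 578249 on control blood and 659642, at the limit, on NNK blood.

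The 6 other genes were within the measuring range and all lower on the NNK array. The processed signals on control and NNK blood were 35817.3 and 21895.0 for Slc4a1, and 9824.1 and 7964.9 for Epb42. They were 73983.4 and 43034.7 for Rhd, 33583.7 and 25929.0 for Klf1, and 22980.5 and 17933.9 for Hemgn. After quantile normalization of the 2 arrays these genes were between 1.35-fold and 1.86-fold lower on the NNK array. Rhag alone passed 2-fold, with 2755.0 on control and 871.8 on NNK blood, a normalized log2 difference of -2.14 or 4.42-fold. At 2-fold, 1 of the 8 genes was thus lower and 0 were higher, where 19.1% of all 14452 probes compared were lower and 23.1% higher.

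The scaling of the blood arrays decides this count. The median log2 difference of the 8 genes was -0.47, against -0.11 for all probes. It includes Hbb at 0.00 and Alas2 at 0.13, both at the scanner's limit on the NNK array. With a shift to the 75th percentile in place of quantile normalization, 7 of the 8 were at least 2-fold lower, between -2.77 (Rhag) and -1.11 (Hbb) on the log2 scale, where 25% of all probes were lower and 22.3% higher and the median of all probes was -0.26. Alas2, at the scanner's limit on the NNK array, was at -0.92. Among the 7, Hbb was at the scanner's limit on both arrays, so its difference there came from the shift and is no measured decrease.

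Of the 62 other erythroid genes compared in blood, 15 were at least 2-fold lower on the NNK array and 6 higher, with a median log2 difference of -0.42. By the same rule 19.1% of all probes were lower and 23.1% higher. With the shift to the 75th percentile, under which 25% of all probes were lower and 22.3% higher, 38 of the 62 genes were lower and 6 higher. Of the genes called in lung, Tal1, Foxo3, Epor, Car1 and Blvrb were among those lower in NNK blood, with log2 differences of -1.53, -1.31, -2.21, -2.08 and -1.01, and Glrx5 and Hmox1 were among those higher, with 2.09 and 1.68. In processed signal as deposited, Foxo3 was at -0.08 and Blvrb at -0.85, short of 2-fold, while the other genes just named passed it. The adult globins were near the limit of the scanner or at it. Hba-a1 had processed signals of 556276 and 590738 on control and NNK blood. Hbb-b1 on NNK blood (659643) and Hbb-bs on control blood (658488) were at the limit, so no fold change can be given for these 2 genes.

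Other cells differed between these 2 arrays too, where 19.1% of all probes were lower and 23.1% higher, and their part in the differences was not tested. Of the platelet markers 4 of 6 were at least 2-fold lower on the NNK array, with a summed normalized signal of 155364 on control and 88660 on NNK blood. Of the neutrophil markers 5 of 7 were higher, with sums of 15880 and 73445, and of the T cell markers 5 of 8 (18723 and 19446). Of the macrophage markers 2 of 4 were higher (4202 and 7418) and of the B cell markers 1 of 3 (78.7 and 159).

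**Figure D3:**
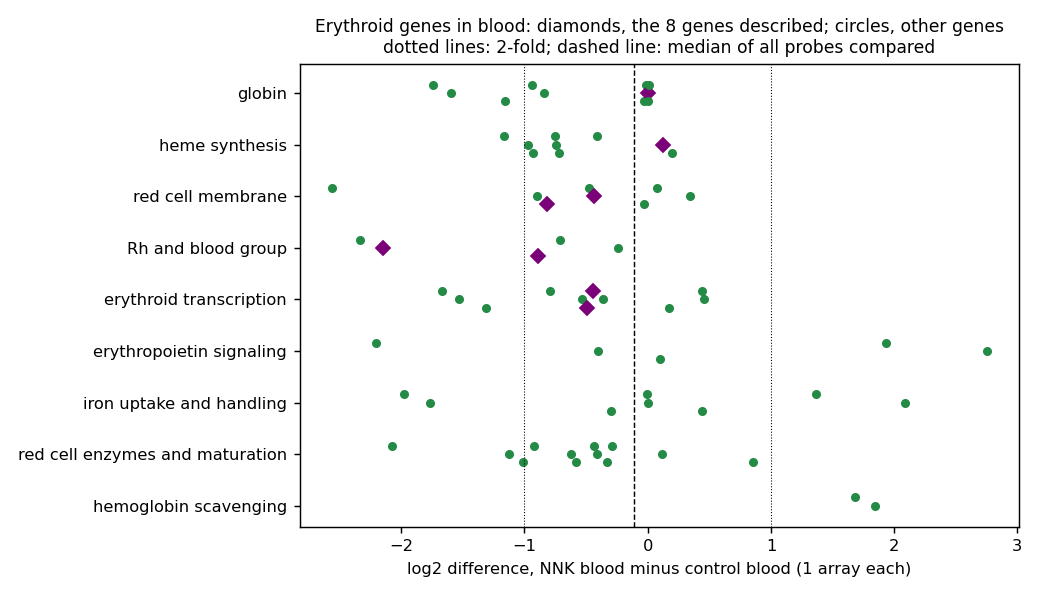
Log2 difference of quantile-normalized signal, NNK blood minus control blood, 1 array each, for the 8 genes described (diamonds) and 62 other erythroid genes by function. Rhag is the 1 diamond left of the dotted 2-fold line, and Hbb lies at 0.00 with both arrays at the scanner's limit. Alas2 lies at 0.13 with its NNK array at the limit, and was at -0.92 under the shift to the 75th percentile. The dashed line is the median of all probes at -0.11.

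Blood was also set against normal lung, which checks the labels of the clots and gives the order of the groups for each gene. All 8 genes were at least 2-fold higher on both blood arrays than the mean of the normal lung arrays, after quantile normalization over all 8 arrays. Over the 15632 probes compared, 31.7% were higher and 45.8% lower by this rule, and the median log2 difference of the 8 genes was 7.28 for control and 6.90 for NNK blood, against -1.26 and -0.99 for all probes. There was no test, since each blood group had 1 array.

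In every gene both blood arrays were above the normal lung arrays, which were above the tumor arrays, apart from the overlap of Klf1 between normal lung and tumor in the signals as deposited. The ratio of blood to lung differed widely between the genes. In processed signal as deposited, Slc4a1 was 169.6-fold higher on control blood and 103.7-fold higher on NNK blood than the mean of normal lung, and Epb42 143.8-fold and 116.6-fold. Klf1, Rhd and Hemgn were between 40.2-fold and 65.4-fold higher on control blood. Rhag was only 5.42-fold higher on control and 1.71-fold higher on NNK blood, so it fell short of 2-fold without normalization. For Hbb the ratio is a lower bound, at least 3.47-fold on either array, because its blood signals were at the scanner's limit.

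Most markers of lung cells were lower in the clots, where 45.8% of all probes were lower and 31.7% higher. Of 6 type 1 and 6 type 2 alveolar markers compared, 5 each were at least 2-fold lower on both blood arrays than in normal lung. The exceptions were Napsa, a type 2 marker, at -1.99 and -0.99 on the log2 scale, and Rtkn2, a type 1 marker, which was higher in blood by 8.44 and 7.29, on control and NNK blood. Sftpc, the surfactant protein that defines type 2 cells, and the type 1 markers Aqp5 and Pdpn were well above background on neither blood array, while others, such as Ager, Hopx and Sftpd, were so on both. All 6 endothelial markers compared were lower in blood. All 5 platelet and all 6 neutrophil markers compared were higher.

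**Figure D4:**
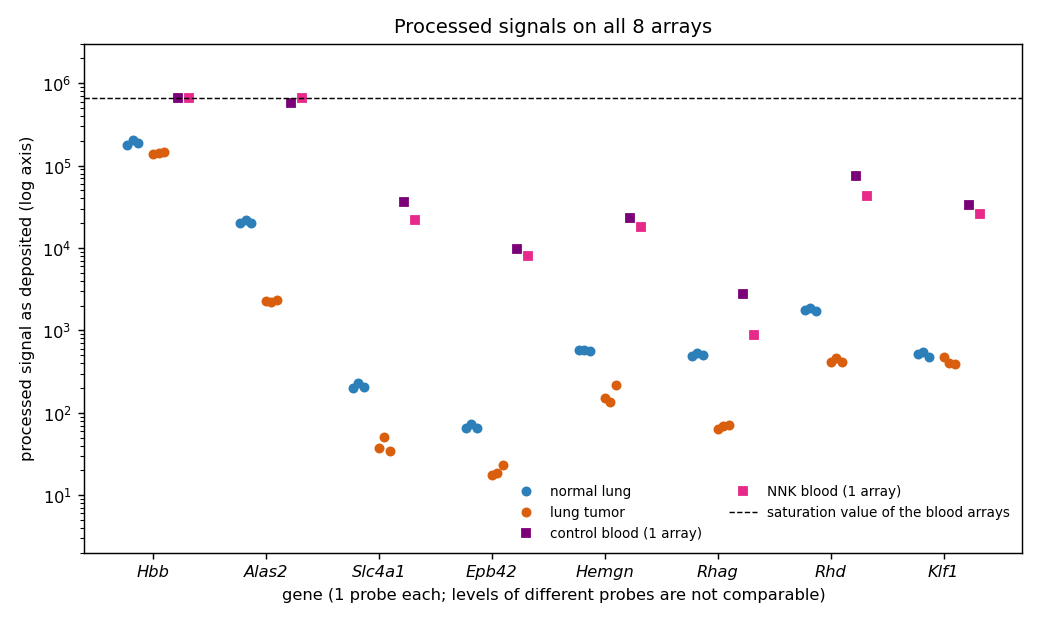
Processed signal as deposited, on a log axis, for the 8 genes on 3 normal lung, 3 lung tumor, 1 control blood and 1 NNK blood array, with 1 point for each array and no normalization between arrays. The blood points lie above the lung points for every gene, the normal lung points lie above the tumor points for every gene but Klf1, where they just overlap, and Hbb on both blood arrays and Alas2 on the NNK array sit at the dashed saturation value.

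The genes outside the erythroid lists with the pattern most like Hbb over the 8 arrays were Npy, Rcsd1, Hbbl1, Peak1 and Serpina1, by Pearson's r between 0.997 and 0.999 among 4312 mRNA probes well above background on all arrays. Hbbl1 is named as a beta-globin-like gene. Those most like Alas2 were Peak1, Rcsd1, Pthlh, Serpina1 and Adora2a, with r between 0.999 and 1.00. The 8 arrays lie in 3 sets, of blood, normal lung and tumor, so that r restates these levels and is given as a description with no test.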

How the data were processed

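RNA of 8 rat samples was hybridised by the authors in 1 colour to Agilent slides, and Feature Extraction 10.5.1.1 gave the deposited scanner intensity for each spot. The deposited table of log2 values, quantile-normalized by the authors, served only as an alternative. The deposited processed signals (intensity, background-subtracted) were set to log2, quantile-normalized over spots within the 6 lung arrays, within the 2 blood arrays, or over all 8, and averaged for each of 24684 probes without outlier-marked spots. Probes well above background on at least 3 lung arrays, with values on at least 2 arrays per group, were tested two-sided with limma 3.58.1 in R 4.3.3 (Benjamini-Hochberg over 12471 probes) and called at a fold change of 2 and an adjusted p of 0.05. Probes were named through RefSeq accessions, which named 14274 of 15323 mRNA probes (93.2%), and a gene with several probes was read from the one with the highest mean. The scripts were tested on simulated data.

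The genes and lists were chosen with earlier results of these data known. Named genes were the 9 genes, list genes that passed the call in lung or, in lists with none, the 3 largest changes, and the 5 probes most like Hbb and Alas2. Genes named beyond that rule (Hbb-b1, Hba-a1, Hba-a2, Hp, Hpx, Pf4, Gp5, Sftpc and those not well above background) were chosen after their values were seen. The values of some list genes are not reported here. The number of arrays limits the precision. Alternatives were another scaling, background correction, filter and test, blocks for scan and replicate number, near-identical arrays counted once and each lung array left out.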

Additional observations from a re-analysis of the deposited data

How the results depend on the processing

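Of 134 recomputed counts, 128 stayed within 1.5 times the reported value. The count of 5 other erythroid genes higher in the tumor was 3 by the methods' t-test in paired form, with and without adjustment, 1 with near-identical arrays counted once, and 4 to 8 when 1 lung array was left out, with 8 without lung tumor array 1. In blood, the shift to the 75th percentile gave 7 of the 8 genes lower in place of 1, and 38 other erythroid genes in place of 15. The cause of these shifts was not tested. Normexp with its offset, which shrinks the differences of low signals, left 5 of the 8 genes called lower in lung, with Epb42 at -0.76, and their median at -1.48. Over all alternatives no direction of a called gene reversed.

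Tumor and normal lung arrays shared replicate numbers, but the correlations of their deviations from the group means were 0.143, -0.0406 and 0.160 over 11359 probes, so the numbers were not taken to pair them. With the replicate number as a block, 6 of the 8 genes were lower, and 11 other erythroid genes were lower and 4 higher. The methods' t-test, unpaired, called the same number of genes as limma in both sets. The share of all probes called is not reported here for the replicate block, normexp or the methods' t-tests. Those counts therefore describe the genes alone. The scanner's limit, reached by Hbb on both blood arrays and by Alas2 on the NNK array, and the single array per blood group, bound what blood can show.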
